A study of Mus musculus with 6 samples.

Results

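The Krüppel-like factors (KLFs) are transcription factors that bind GC-rich and CACCC-type DNA through zinc fingers at their C terminus, and their closest relatives are the Sp factors. Their N-terminal parts differ, so that some members mainly activate transcription and others recruit co-repressors. In stratified and glandular epithelia Klf4 is known for its part in differentiation and Klf5 for its part in the proliferation of basal cells. Described here are 9 KLF genes (Klf4, Klf5, Klf6, Klf7, Klf8, Klf9, Klf12, Klf13 and Klf15) of the 17 KLF genes looked up and of 21887 protein-coding genes in all. They were chosen by name, with the placement of regions in these same data already known, so that the presence of regions near them is a description and not a finding.

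The data were ATAC-seq, in which a transposase cuts accessible chromatin, from basal stem cells sorted from mouse prostate as CD45-CD31-Sca-1+CD49f+. The 3 naive libraries are labelled genotype WT and treatment control. The 3 inflamed libraries are labelled genotype POET3 (Prostate Ovalbumin Expressing Transgenic 3) and treatment inflamed, with harvest 7 days after transfer of activated OT-1 splenocytes. The protocol text speaks of POET3 animals for both groups, the labels give no age or pooling, and genotype and inflammation cannot be told apart. The values used were 6502 regions on mm10, read from the words in the list's name as regions that differ between the groups. The list has no direction, signal, p-value or value per library, so no gene below is called more or less accessible in inflamed cells, no test between the groups was possible, and basal, luminal or leukocyte markers could not be used to check the sort. The depth of the libraries is unknown. Nearly all regions have 1 of 2 widths, 451 bases (called wide) and a smaller fixed width that the coordinates below show (called narrow), and what the widths stand for is not given in the sources used here.

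All 9 KLF genes had at least 1 region centred in the gene span or within 100 kb of it, a total of 15 regions. Over all protein-coding genes 42.7% had such a region. In each of the 15 cases the KLF gene was also the nearest protein-coding gene. Counted against all annotated genes, non-coding ones included, the KLF gene was nearest in 53.3% of cases. Over all protein-coding genes 16.9% were the nearest gene to at least 1 region within 100 kb. Because the 9 genes were selected on the placement of regions, nothing is read from these shares. Of the 15 regions, 8 were wide and 7 were narrow, or 53.3% wide regions (exact 95% interval 26.6 to 78.7, for counting error only) beside 50.6% in the whole list.

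Of the 15 regions, 4 lay inside a KLF gene, 3 of them in Klf12 and 1 in Klf9, and 11 lay outside. The share inside was 26.7% (exact 95% interval 7.79 to 55.1), beside 47.6% in the whole list and 55.4% of the 5587 regions within 100 kb of their nearest gene. The smallest distance from a centre to an end of the KLF gene (either end of its span) was 9.27 kb, at Klf8. The median was 24.0 kb, beside 27.1 kb in the whole list and 19.6 kb for the regions within 100 kb of their nearest gene. None of the 15 lay within 5 kb of a gene end, and none overlapped a start-site window of the RefSeq promoter table (250 bases before to 50 after a start). A count of 0 among 15 allows a share of up to 20.0% by the limit of 3 counts and of up to 21.8% by the wider exact 95% interval. In the whole list 19.9% of regions were within 5 kb of an end of their nearest protein-coding gene, and 9.07% overlapped such a window. Among the 5587 regions within 100 kb of their nearest gene these shares were 23.2 and 10.4%. Counted by gene, 33.2% of the 3708 protein-coding genes with a region nearest to them had one within 5 kb of an end, against 0 of the 9 KLF genes. For 0 of 9 genes the exact interval reaches 33.6%. These intervals cover counting error only, and the 9 genes were chosen with the placement of regions known. A difference in nearness to gene ends was therefore not tested, and no conclusion on it is drawn.

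**Figure D1:**
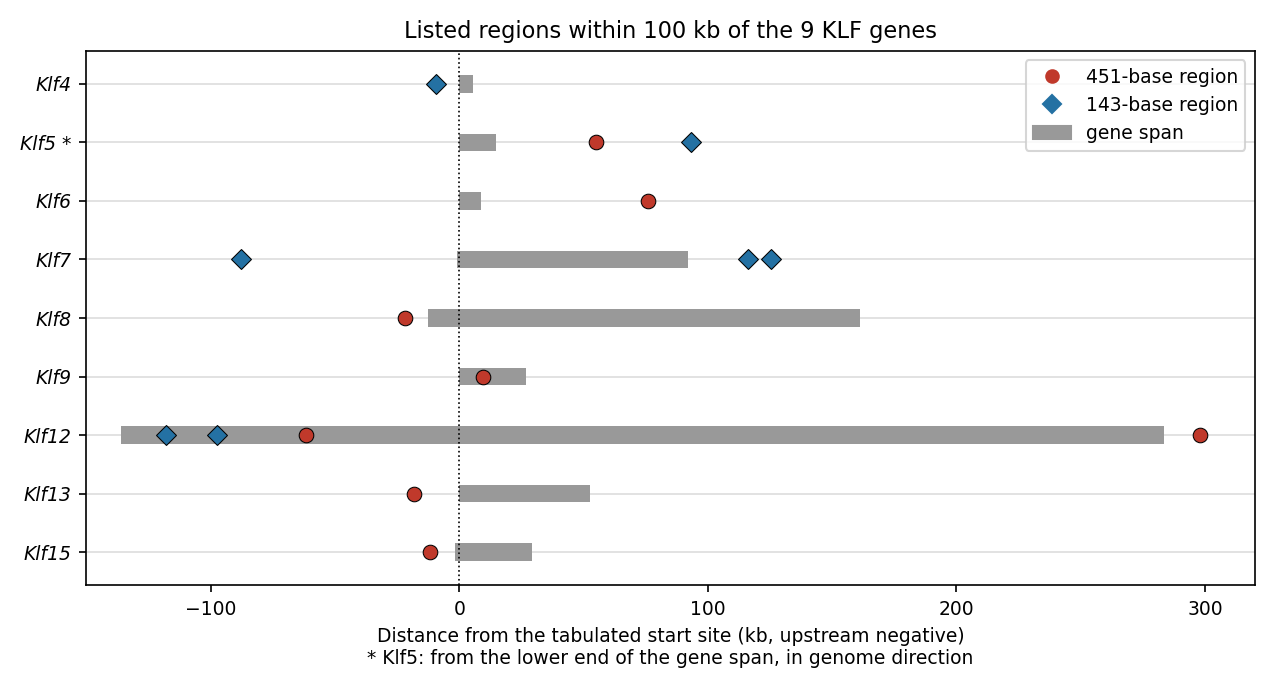
Position of the 15 listed regions at the 9 KLF genes, in kb from the tabulated start site along the gene's direction (upstream negative), with gene spans as grey bars, wide regions as red circles and narrow regions as blue diamonds. Klf5 has no entry in the start-site table and is drawn from the lower end of its span in genome direction. No region sits at a start site, and Klf12 and Klf9 alone have regions inside the span.

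The start-site windows of Klf4, Klf9 and Klf15 are shown because these are the members with a region closest to a tabulated start, at 9.38, 9.54 and 11.8 kb. They were picked after the positions were known. The sequences are from RefSeq (GRCm38.p6, the primary chromosomes of mm10) and run 5′ to 3′ on the gene's strand. Capitals mark the letters CCNCNCCC on either strand, a general form of the KLF and Sp binding sequence.
Klf4, chr4:55532426-55532725, minus strand: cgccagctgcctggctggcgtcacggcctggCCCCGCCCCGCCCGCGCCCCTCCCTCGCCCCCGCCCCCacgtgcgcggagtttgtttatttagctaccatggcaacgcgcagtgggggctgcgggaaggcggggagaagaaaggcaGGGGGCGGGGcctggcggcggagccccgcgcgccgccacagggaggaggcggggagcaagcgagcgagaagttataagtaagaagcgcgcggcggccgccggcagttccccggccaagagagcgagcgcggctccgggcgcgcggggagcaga
Klf9, chr19:23140976-23141275, plus strand: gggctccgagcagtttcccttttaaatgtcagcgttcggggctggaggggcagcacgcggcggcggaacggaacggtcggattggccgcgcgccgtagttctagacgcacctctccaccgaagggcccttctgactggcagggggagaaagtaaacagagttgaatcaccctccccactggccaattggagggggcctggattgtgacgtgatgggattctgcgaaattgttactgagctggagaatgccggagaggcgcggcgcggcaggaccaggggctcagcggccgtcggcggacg
Klf15, chr6:90462326-90462625, plus strand: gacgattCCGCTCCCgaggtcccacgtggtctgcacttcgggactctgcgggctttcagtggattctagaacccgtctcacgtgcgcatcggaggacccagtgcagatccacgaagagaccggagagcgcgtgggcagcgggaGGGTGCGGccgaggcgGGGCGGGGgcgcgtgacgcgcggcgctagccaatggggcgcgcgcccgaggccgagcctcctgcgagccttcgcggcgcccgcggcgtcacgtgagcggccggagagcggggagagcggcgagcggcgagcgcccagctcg

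The Klf4 window held 9 overlapping or separate matches, the Klf15 window 3, and the Klf9 window none. Windows were tabulated for 8 of the 9 KLF genes, with 9 windows in all since Klf8 has a pair. Of these 9 windows, 8 held CCNCNCCC and the exception was Klf9, beside 49.5% of all 32851 windows and 64.3% of the 16210 protein-coding windows within the GC range of the KLF windows (45.7 to 74.3%). Matches ran from 0 at Klf9 to 9 at Klf4, with 8 at Klf7, 5 at Klf13, 3 at each of Klf6 and Klf15, 2 at Klf12, and 3 and 4 in the windows of Klf8. The GC box letters GGGCGG, which can overlap CCNCNCCC, were in 7 of the 9 windows, beside 35.7% of all windows and 53.03% of those in the GC range. The AP-1 letters TGANTCA occurred in 1 of the 9, that of Klf9, beside 7.81% of all windows. The letters searched for ETS factors (GGAAGT), for RUNX factors (TGTGGT) and for TEAD factors (GGAATG) were each in 1 of the 9 windows, beside 23.8, 16.8 and 14.7% of all windows. The letters AGAACA, a half-site of steroid hormone receptors, occurred in none of the 9, beside 19.0% of all windows. The NF-kB consensus was also in none, beside 8.46% of all windows and 10.3% of those in the GC range. The letters AGATAA of the GATA factors, those of C/EBP factors (TTGCNNAA) and the p53 family consensus were likewise in none, beside 11.2, 10.8 and 8.36% of all windows. In the GC range these 3 shares were 7.18, 9.24 and 7.52%, and that of AGAACA was 14.4%. For the AP-1, ETS, RUNX and TEAD letters the GC-range shares were 5.86, 26.7, 14.6 and 13.7%. Nothing is read from counts of 0 or 1 among 9 windows. The GC range is broad and keeps 16210 of the 21263 protein-coding windows. Median GC was 63.0% in the KLF windows against 56.3% in all protein-coding windows, so the range matches GC content only loosely. Differences in the shares with CCNCNCCC or the GC box letters were not tested.  The windows carried no listed region, and the sequences of the regions themselves were not analysed here, so these matches describe the genes' starts and not the regions.

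Among the KLFs that mainly activate transcription, Klf4, a factor of epithelial differentiation also known from cell reprogramming, had a lone narrow region (chr4:55541784-55541926). It lay 9.38 kb upstream of the start, inside the span of the long non-coding RNA gene Gm12506. The next listed region was 201 kb from Klf4. Klf4 spans chr4:55527137-55532475, and the nearest protein-coding genes on the sides were Rad23b at 135 kb and Actl7b at 1208 kb. Between those neighbours lay 8 regions, 6 of them wide, or 0.594 per 100 kb.

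Klf5, which drives proliferation of basal epithelial cells, spans chr14:99298691-99313412. Its regions were a wide one 40.5 kb from the span (chr14:99353663-99354113) and a narrow one 78.5 kb from it (chr14:99391811-99391953). Both were on the side that faces Klf12. On the other side the protein-coding gene Pibf1 lies 43.8 kb away, and no listed region fell within 100 kb of Klf5 there.

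Klf6, studied as a growth suppressor in prostate and an activator of Cdkn1a, had a wide region 67.2 kb downstream of the gene (chr13:5937341-5937791), inside the long non-coding RNA gene Gm46401. Klf6 spans chr13:5861489-5870393 in a stretch without other protein-coding genes for 1252 kb towards Akr1e1 and 678 kb towards Pitrm1. This stretch held 11 regions, 8 wide and 3 narrow, of which only 1 met the 100 kb rule.

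Klf7, best known from neurons and fat cell precursors, had 3 regions, all narrow. A pair lay 9.29 kb apart downstream of the gene, at 24.0 and 33.3 kb from the span (chr1:64005357-64005499 and chr1:63996072-63996214), the closest pair among the 15 regions. The third lay 87.9 kb upstream of the tabulated start (chr1:64209239-64209381), inside the non-coding gene Gm35880. Klf7 spans 92.9 kb (chr1:64029448-64122345) and no region was inside it. Over all protein-coding genes 1.95% were nearest to 3 or more regions.

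Klf8 and Klf12 are repressors that recruit the co-repressor CtBP. Klf8 spans 174 kb on the X chromosome (chrX:153225339-153398925), where listed regions were sparse, at 0.121 per 100 kb against 0.242 over all chromosomes. It had a lone wide region 9.27 kb outside the span and 21.7 kb upstream of the nearer of its tabulated starts (chrX:153215847-153216297).

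Klf12 is the longest of the 9 genes, at 420 kb (chr14:99866181-100285891), and had the most regions, 4. A wide region lay 14.3 kb downstream of the gene (chr14:99851653-99852103). The other 3 lay inside the span, a wide region (chr14:100211083-100211533) and a pair of narrow regions 20.5 kb apart (chr14:100247228-100247370 and chr14:100267732-100267874). All 3 were upstream of the tabulated start site, by 61.5, 97.5 and 118 kb, since the span reaches 136 kb further upstream than that start. Whether a region inside the span is in the body of a transcript therefore depends on which start the cells use, which was not measured. Among the 405 protein-coding genes of 300 to 600 kb, 11.6% were nearest to 4 or more regions, against 0.813% of all protein-coding genes. The Klf12 window held 0.645 regions per 100 kb, against 0.277 pooled over the windows of these 405 genes. Klf12 was chosen with its regions known, and the part of gene length in its count was not tested.

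Klf9 and Klf13 repress through the co-repressor Sin3a. Klf9, a gene induced by glucocorticoids, carried the only region inside a gene other than Klf12, a wide region 9.54 kb downstream of its start (chr19:23150537-23150987; the gene spans chr19:23141226-23168129). The table gives no exons, so exon and intron were not told apart. Klf13, known from T cells as an activator of Ccl5, had a wide region 18.0 kb upstream of its start (chr7:63956730-63957180), inside the non-coding gene Gm39024. The span of Klf13 is chr7:63886351-63938915, and the protein-coding gene E030018B13Rik overlaps it.

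Klf15, a regulator of amino acid and glucose metabolism that responds to glucocorticoids, had a wide region 10.2 kb outside its span and 11.8 kb upstream of its tabulated start (chr6:90450579-90451029). This was the most isolated of the 15, with the nearest other listed region 1036 kb away. The median of that distance was 92.8 kb for the 15 regions and 67.9 kb for the whole list. Klf15 also had the most crowded surroundings, with 18 other protein-coding genes within 500 kb, while Klf6 and Klf12 had none. The median was 4 for the 9 genes and 16 over all protein-coding genes, and the gap to the nearest other protein-coding gene had a median of 43.8 kb against 5.29 kb. A gene with distant neighbours is the nearest one to more of the sequence around it, but its bearing on the regions here was not tested.

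Between Klf5 and Klf12 lies a stretch of 553 kb on chromosome 14 with 9 non-coding genes and pseudogenes, and no protein-coding gene. It held 7 listed regions, or 1.27 per 100 kb, while chromosome 14 as a whole had 0.199. Besides the 3 already described, 4 narrow regions lay more than 100 kb from both genes, at 137, 301, 311 and 381 kb from Klf5. The widths were ordered along the stretch, with a wide region nearest to each gene and 5 narrow regions between them. Of 1164 such stretches of at least 300 kb between neighbouring protein-coding genes, 12 (1.03%) were as dense or denser, this stretch included, and 52.5% held no region. Within the inner 353 kb, which the 100 kb rule did not use, there were 1.13 regions per 100 kb against 0.113 over the inner parts of all 1164 stretches, and 25 of them (2.15%) were as dense or denser. These ranks describe the list, and the stretch was picked after its regions were seen. The list does not say which gene, if any, a region acts on.

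**Figure D2:**
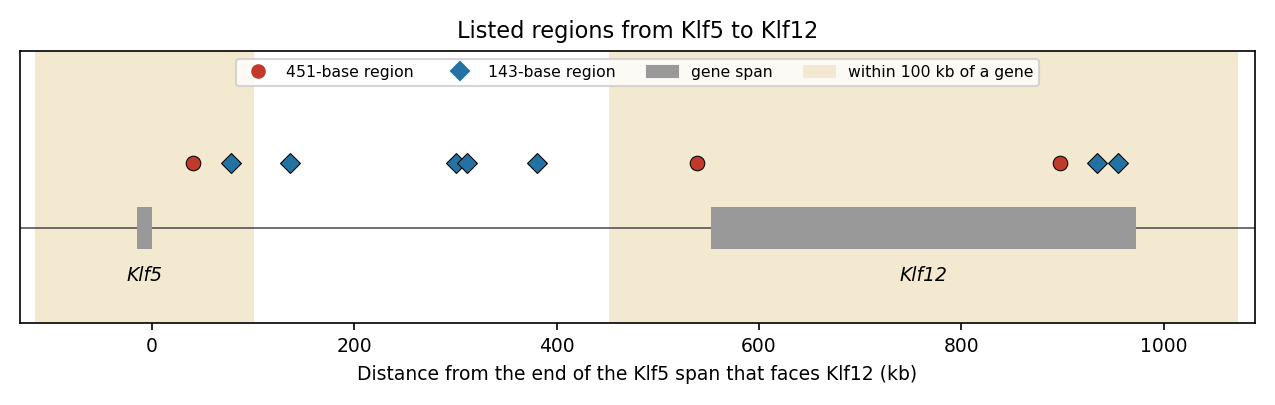
Listed regions from Klf5 to Klf12 by distance in kb from the end of the Klf5 span that faces Klf12, with wide regions as red circles, narrow regions as blue diamonds, gene spans in grey and the 100 kb windows shaded. The unshaded middle holds 4 regions, all narrow.

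Around the 9 genes the densest bins were those from 0 to 25 kb of the span, which hold 2 and 4 regions. Inside the 100 kb windows there were 0.571 regions per 100 kb, against 0.293 over the windows of all protein-coding genes, a difference that the choice of members builds in. From 0 to 10 kb there were 2 regions, or 1.11 per 100 kb against 0.324, and from 10 to 25 kb 4 regions, or 1.48 against 0.292. From 25 to 50 kb there were 2 regions, or 0.444 against 0.296, and from 50 to 100 kb 3 regions, or 0.333 against 0.283. These bins lie inside the same windows, so the choice of members bears on them too, and nothing is read from the highest. Beyond 100 kb, where the rule was not applied, the 9 genes had 11 regions from 100 to 250 kb (0.407 per 100 kb against 0.279) and 16 counts of 15 regions from 250 to 500 kb (0.356 against 0.268). Without Klf5 and Klf12 these densities were 0.333 and 0.229, so that the farther one fell below that of all genes. The next regions past the 100 kb limit were 108 kb from Klf8, 119 kb from Klf13 and 124 kb from Klf5, and the last ones inside it were 87.0 kb from Klf7 and 78.5 kb from Klf5.

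**Figure D3:**
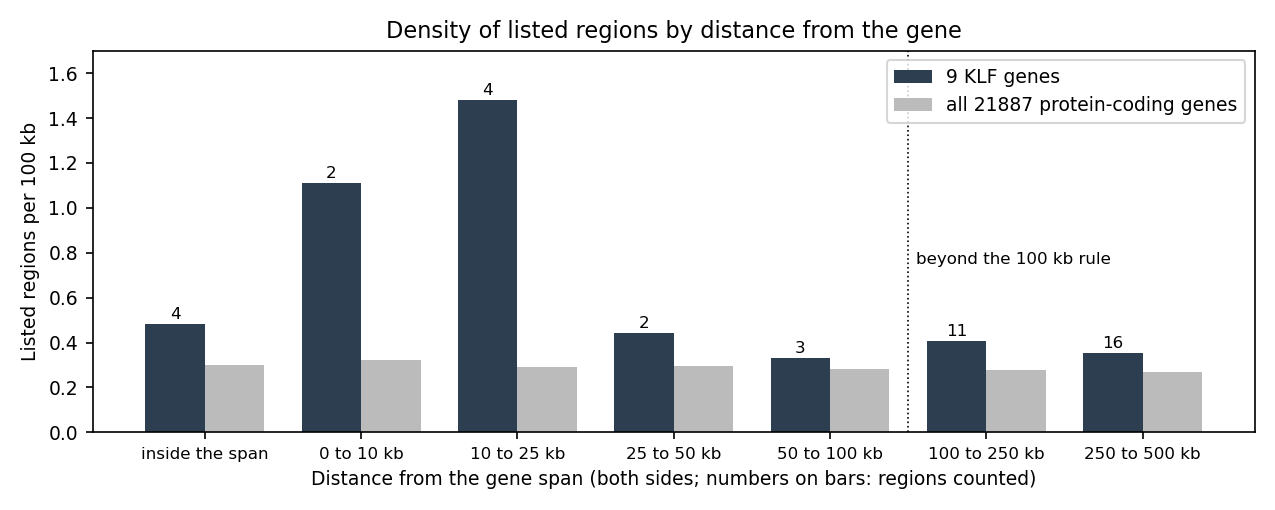
Listed regions per 100 kb by distance from the gene span, on both sides, for the 9 KLF genes (dark) and all 21887 protein-coding genes (grey). Numbers on the dark bars are the regions counted, and the 2 bins right of the dotted line are outside the rule that chose the windows.

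Over all 17 KLF genes looked up, 64.7% had a region in the span or within 100 kb, beside 42.7% of all protein-coding genes. Of the 17, 52.9% were nearest to one, beside 16.9%, and the pooled density was 0.442 regions per 100 kb against 0.293. These values include the 9 genes chosen with their regions known, so nothing is read from them. The median gap to the nearest other protein-coding gene was 35.1 kb for the 17 genes against 5.29 kb, and its part was not tested. The other 8 KLF genes are what the choice of members left over, and 25.0% of them had a region, beside 42.7% of all protein-coding genes. Of these 8, 6 had no region in the span or within 100 kb: Klf1, the erythroid factor, Klf2, a factor of endothelial cells and lymphocytes, and Klf3, Klf11, Klf14 and Klf17. Klf10, induced by TGF-beta, had a narrow region on each side at 98.3 and 98.6 kb, just inside the limit and nearer to Odf1 and Azin1. Klf16 had a pair of narrow regions at 13.2 and 25.6 kb, which were nearer to Abhd17a and Adat3. Thus no region was nearest to any of these 8 genes. Of the 9 Sp genes, 5 had a region in the window (55.6%, beside 42.7% of all protein-coding genes) and 3 were nearest to one (33.3%, beside 16.9%). Sp4 had a wide region 0.612 kb outside the gene (chr12:118301827-118302277), Sp8 had regions at 9.43 and 30.0 kb that were nearest to it, and Sp3 at 54.7 and 98.1 kb. Among the KLF and Sp genes looked up, only Sp4 had a region within 5 kb of a gene end.

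**Figure D4:**
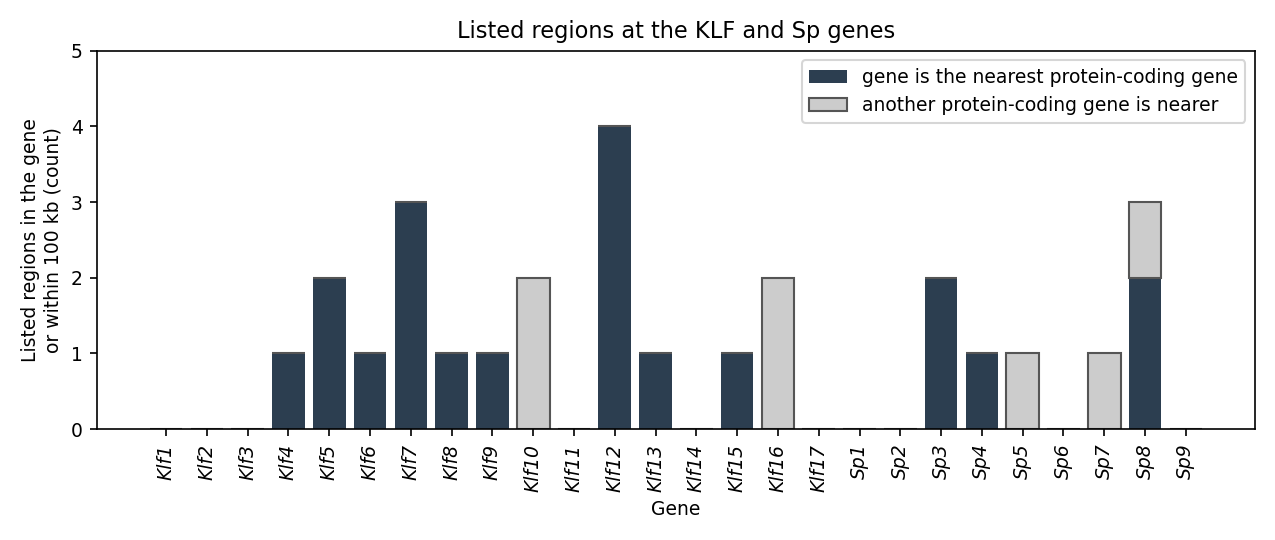
Number of listed regions inside or within 100 kb of each of 17 KLF and 9 Sp genes, split by whether the gene (dark) or another protein-coding gene (light) is the nearest. The 4 regions of Klf12 are the highest count, and the light bars of Klf10 and Klf16 are regions nearer to other genes.

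Of 26 genes that act with or upstream of KLFs or are known targets, 11 had a region in the window (42.3%, beside 42.7% of all protein-coding genes) and 7 were nearest to one (26.9%, beside 16.9%). Upstream regulators had 5 of 7. Smad3, which relays TGF-beta signals, had 4 narrow regions, 3 of them inside the gene. Wwtr1, which encodes TAZ, also had 4, of which a narrow one inside the gene was nearest to it (chr3:57501901-57502043). Smad4 and Egr1 had none. The regions closest to Tgfb1 and Yap1, at 6.85 and 28.4 kb, were nearer to other genes, and Nr3c1, the glucocorticoid receptor gene, had one at 58.0 kb nearest to it. Among 7 co-repressor genes, Ctbp1, a partner of Klf8 and Klf12, carried a wide region within the gene (chr5:33248086-33248536). This region lay 0.588 kb from the downstream end of the Ctbp1 span, not at its start. Sin3b had one nearer to another gene, and Sin3a, Ctbp2, Hdac1, Hdac2 and Hdac3 had none. Of 3 co-activator genes Kat2b was nearest to one, inside the gene and 15.6 kb from the nearer end of its span, and Ep300 and Crebbp had none. Of 3 genes of protein turnover, Fbxw7, whose product marks Klf5 for degradation, was nearest to one, inside the gene and 26.9 kb from the nearer end of its span, and Wwp1 and Btrc had none. Of 6 targets, Fgfbp1, activated by Klf5, had a region 18.7 kb away nearest to it, the regions near Slc2a4 were nearer to other genes, and Cdkn1a, Ccnd1, Pdgfa and Prodh had none. Each share in these small groups rests on a handful of genes.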

How the data were processed

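Chromatin accessibility was assayed by ATAC-seq in 6 libraries, 3 naive and 3 inflamed. Only a merged list of 6502 regions was used. Its values are coordinates (chromosome, start, end), deposited by the authors without signal or values per library. Per the submitters' processing notes, BWA 0.7.17-r1188, SAMtools, HOMER 4.8 and edgeR are named, with build mm10. Their order, thresholds and pooling are not given in the sources used here.

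Starts are printed counted from 1. Regions were placed by their centre against RefSeq gene spans (GRCm38.p6, chromosomes 1 to 19, X and Y) with Python 3.11.15 and pandas 2.3.3. A region was nearest to the protein-coding gene with the smallest distance to its span, the shorter gene on a tie. Strand and start sites came from the RefSeq promoter table, which has no entry for Klf5. Motifs were searched on both strands. A single gene of the fixed partner list is not reported here and enters no count. The other genes of the lists were looked up and up to 3 per partner role were to be named; further names were added after their positions were seen. The members and lists were chosen with earlier results of these data known. The placement code was tested on simulated data, where 300 of 300 positions gave the gene that a plain search gives. All these positions were drawn inside protein-coding genes, so the placement of regions outside genes was not tested in this way. Exact intervals (Clopper-Pearson, scipy 1.17.1) cover counting error only. No test was made.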

Additional observations from a re-analysis of the deposited data

How the results depend on the processing

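No paired analysis was possible because coordinates are all that was used and no replicate has a value, and for the same reason no replicate could be left out. Of 39 alternative values, 28 stayed within 1.5 times the reported count or density, or within the exact interval of the reported share. Some of these could not move. All 15 regions were already nearest to the KLF gene among protein-coding genes, and the closest pair was 9.29 kb apart. Counting nearest genes only and merging regions within 1 kb therefore left the values unchanged. With gene spans alone, 2 genes (Klf9 and Klf12) and 4 regions were left. With narrow regions alone there were 4 genes, 7 regions and 0.267 per 100 kb, and with wide regions alone 8 regions, 0.305 per 100 kb and 2 regions between Klf5 and Klf12. A window of 250 kb gave 26 regions, with the KLF gene nearest in 73.1%, and against all annotated genes, non-coding ones included, it was nearest in 53.3%. With 50 kb, Klf6 lost its region. Motifs inside the regions, for the KLF letters and the GC box, were not run for want of sequence. The GC box letters in the start-site windows, the Klf5 to Klf12 alternatives and the count without Klf12, which left 11 regions, were chosen after the data were seen.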
